A study of Homo sapiens with 6 samples.

Results

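The genes of the TGF-beta, BMP and activin pathway were followed in A204, an established human cell line labelled as a rhabdoid tumour line, after treatment with SAHA (vorinostat), an inhibitor of histone deacetylases. The set was a list of 59 named genes, drawn up with earlier results of these data known, of which 58 were measured among the 18417 genes on the arrays, and BMPR1A was not analysed here. By role the list held 22 ligands, 6 genes of ligand release and matrix, 13 receptors, 8 SMADs, 3 intracellular regulators and 7 antagonists. Where several probe sets were annotated to a gene and no other, the one brightest on average over the 6 arrays stood for it.

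Expression was measured in total RNA on Affymetrix whole-transcript arrays, 3 from A204 cells given SAHA for 12 h and 3 from A204 control cells. The treatment protocol says that the controls received DMSO, whereas their own treatment label reads none. Both groups were the same line grown in DMEM with fetal bovine serum, with no other agent or allele named, so the results describe 1 line, 1 dose and 1 time. The dose carries an incomplete unit in the labels and is not given here. The labels do not say whether replicate arrays derive from different cultures, and the p-values therefore refer to array-to-array spread that may be technical.

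All values below are log2 of the deposited RMA signal, a background-corrected and quantile-normalized brightness, and a difference of 1 is 2-fold. Array medians in linear signal ran from 148.2 to 148.7 in SAHA and from 142.2 to 145.2 in control, so the groups differed slightly and did not overlap. The small number of arrays limits the precision. KRT8, KRT18 and VIM, the keratins and the vimentin that rhabdoid tumours are known to co-express, averaged 13.48, 13.33 and 12.63 in SAHA and 13.55, 13.54 and 12.81 in control. SMARCB1, the gene typically lost in these tumours, averaged 7.22 ± 0.05 in SAHA and 7.74 ± 0.04 in control (SD, n = 3 each). MUC1, the remaining marker listed for the line, averaged 7.52 in SAHA and 7.80 in control. KRT18 was read from the brighter of 2 probe sets annotated to it alone, and the other is not given here. Without detection calls no gene was called present or absent, and a fold from a low level may be compressed.

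Most ligands of this family bind pairs of type I and type II receptor kinases at the cell surface. TGF-beta and activin receptors phosphorylate SMAD2 and SMAD3, BMP receptors phosphorylate SMAD1, SMAD5 and SMAD9, and both sets enter the nucleus with SMAD4. Secreted antagonists trap ligands outside the cell, latent TGF-beta binding proteins hold TGF-beta in the matrix, and the inhibitory SMAD6 and SMAD7 act inside the cell. In tumours the pathway is known both for arresting growth and for inducing matrix and mesenchymal genes.

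The comparison of SAHA with control asked which of these transcripts differed after histone deacetylase inhibition. Ligand and receptor genes moved in both directions, with the largest rises among the ligands, while 7 of 8 SMAD genes fell and none rose. The activin subunit gene INHBA rose 4.91-fold and the matrix gene LTBP2 was 6.29-fold lower, the largest rise and the largest fall of the set. At an adjusted p under 0.05 (limma, Benjamini-Hochberg over all genes), 20 of the 58 genes were higher and 23 lower in SAHA, and 15 did not pass. Over all genes tested 31.1% were higher and 28.9% lower, together 60.0%, so the 43 calls here (74.1%) stand on a broad background, and with a list drawn up in that way the share is a description only. Changes of 2-fold or more numbered 12 among the members (10 higher and 2 lower), while 11.3% of all genes changed that much (5.84% higher and 5.42% lower). The 3 SAHA values did not overlap the 3 control values for 44 of the 58 members, against 65.4% of all genes. The median change was -0.026 for the members and -0.0027 for all genes, and the median size of change was 0.41 and 0.24 on the log2 scale. In RNA of whole cultures a lower level in every cell and a smaller number of expressing cells cannot be told apart.

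**Figure D1:**
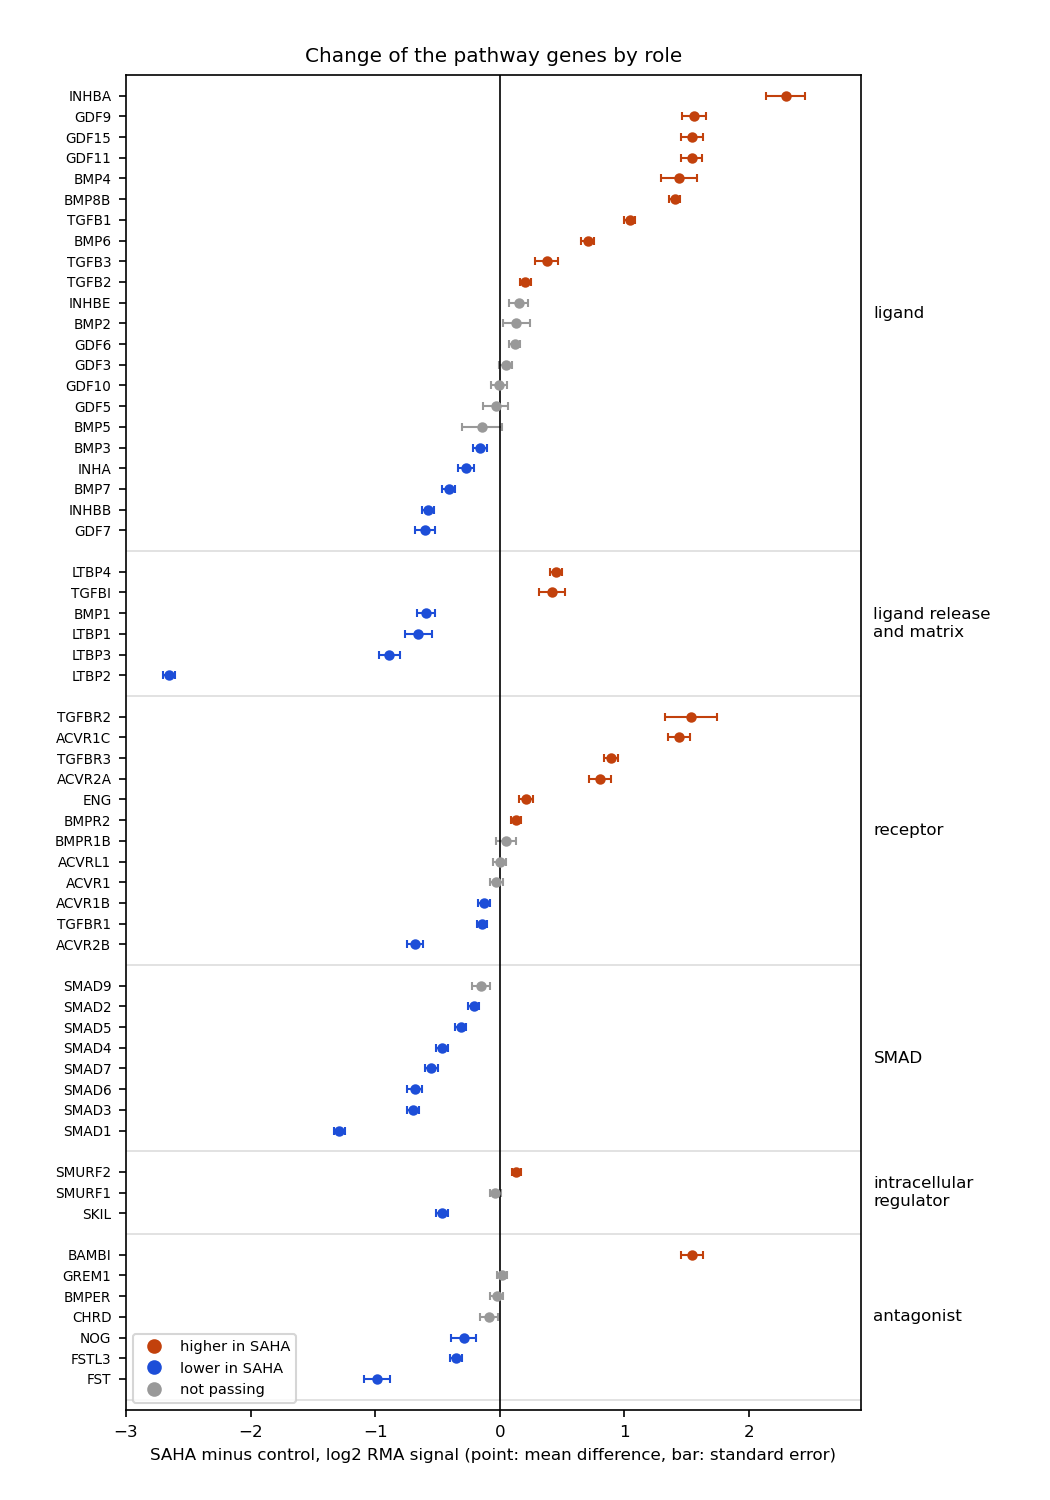
Change of each of the 58 measured pathway genes (SAHA minus control, log2 RMA signal, horizontal axis) grouped by role, with bars for the standard error and colour for the limma call at adjusted p under 0.05. INHBA lies farthest to the right at 2.30 and LTBP2 farthest to the left at -2.65, and all 8 SMAD genes lie below 0.

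Promoter sequences are shown for INHBA and LTBP2, as the largest rise and fall, and for BAMBI, the one antagonist gene that rose. Each line gives the 250 bases before the gene start in RefSeq (GRCh38.p14), 5′ to 3′ on the strand of the gene. The INHBA window is chr7:41703091-41703340, reverse strand, the BAMBI window is chr10:28677271-28677520, forward strand, and the LTBP2 window is chr14:74612238-74612487, reverse strand. Capitals mark matches, on either strand, to GGGCGG (the GC box), GGCGCC (a GC-rich element reported at BMP target genes), CAGACA (which holds the core SMAD-binding letters), TATAAA (the TATA box) and CCAAT (the CCAAT box), the last added after the values were seen.
INHBA: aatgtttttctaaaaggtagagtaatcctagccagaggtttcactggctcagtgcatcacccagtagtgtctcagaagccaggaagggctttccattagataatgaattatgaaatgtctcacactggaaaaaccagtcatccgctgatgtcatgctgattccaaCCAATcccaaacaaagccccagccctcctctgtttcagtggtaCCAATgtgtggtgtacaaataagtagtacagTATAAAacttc
BAMBI: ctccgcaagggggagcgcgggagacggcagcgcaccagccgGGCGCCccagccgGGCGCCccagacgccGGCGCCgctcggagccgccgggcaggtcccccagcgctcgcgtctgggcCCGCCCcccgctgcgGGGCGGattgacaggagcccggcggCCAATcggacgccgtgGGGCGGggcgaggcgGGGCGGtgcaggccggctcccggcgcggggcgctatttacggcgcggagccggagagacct
LTBP2: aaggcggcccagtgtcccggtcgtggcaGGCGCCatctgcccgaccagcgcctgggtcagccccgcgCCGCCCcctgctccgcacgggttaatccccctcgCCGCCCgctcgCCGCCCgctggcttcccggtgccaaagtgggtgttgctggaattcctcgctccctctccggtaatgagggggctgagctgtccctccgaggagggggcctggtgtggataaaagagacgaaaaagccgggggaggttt
The INHBA window held 2 matches to CCAAT and 1 to TATAAA and none to the GC box. The BAMBI window held 4 GC boxes, 3 matches to GGCGCC and 1 to CCAAT, and the LTBP2 window held 3 GC boxes and 1 match to GGCGCC. No capitals of different motifs overlapped in these windows.

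Of the members, 50 had a promoter in the table, as did 14239 of all genes tested. The GC box was present in 65.0% of the 20 windows of members that rose and in 73.7% of the 19 windows of members that fell, against 57.5% of all windows. GGCGCC was present in 25.0% of the rising, 42.1% of the falling and 21.9% of all windows. CAGACA was found in 15.0%, 5.3% and 11.4% of these windows in the same order, TATAAA in 20.0%, 5.3% and 8.6%, and CCAAT in 35.0%, 31.6% and 34.4%. In the 11 windows of members that did not pass, the shares were 54.5% for the GC box, 45.5% for GGCGCC, 18.2% for CAGACA, 9.1% for TATAAA and 45.5% for CCAAT, so that GGCGCC was no rarer there than in the windows of falling members. The median ratio of observed to expected CpG was 0.709 for rising members, 0.875 for falling members, 0.715 for members that did not pass and 0.751 for all windows. A match is a run of letters and not a shown site, and a window follows 1 annotated start of each gene.

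Among the ligands, 10 of 22 rose, 5 fell and 7 did not pass (68.2% called, near the 60.0% of all genes). All 7 ligand changes of at least 2-fold were rises, where 5.84% of all genes rose and 5.42% fell that much. The activin and inhibin subunits diverged. INHBA, the beta-A subunit of activin A, had levels of 8.76, 8.69 and 8.79 in the SAHA arrays, against 6.59, 6.04 and 6.72 in the control arrays. The control values were spread over a wider range than the SAHA values, and every SAHA value lay above every control value. The rise was 2.30 ± 0.16 (standard error, adjusted p = 4.92e-06). INHBB, the beta-B subunit, fell by 0.58, to 9.06 ± 0.06 in SAHA and 9.64 ± 0.04 in control (SD, n = 3 each, adjusted p = 1.71e-05). INHA, the inhibin alpha subunit, fell by 0.27 (adjusted p = 0.00579), and INHBE, the beta-E subunit, was at 0.15 (adjusted p = 0.142) but passed without SAHA replicate 2 (0.22, adjusted p = 0.049).

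All 3 TGF-beta genes rose, by very different amounts, where 31.1% of all genes were higher. TGFB1, the widely expressed isoform, had levels of 9.29, 9.32 and 9.36 in the SAHA arrays, against 8.24, 8.30 and 8.31 in the control arrays. It rose 2.06-fold (1.04 ± 0.04, adjusted p = 3.38e-07), with little spread among the arrays of a group. TGFB3 rose by 0.38 (adjusted p = 0.00752, and 0.0557 in an unmoderated per-gene test) and TGFB2 by 0.21 (adjusted p = 0.00319). TGFB2 averaged 12.24 ± 0.02 in SAHA and 12.04 ± 0.04 in control (SD, n = 3 each).

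Of 7 BMP genes 3 rose, 2 fell and 2 did not pass (71.4% called, against 60.0% of all genes). BMP4, a mesoderm-inducing BMP, had levels of 7.27, 7.63 and 7.87 in the SAHA arrays, against 6.08, 6.34 and 6.05 in the control arrays. The SAHA values differed more from each other than those of most members, yet all lay above the control values (1.44 ± 0.15, adjusted p = 5.34e-05). BMP8B, known for a role in brown fat and germ cells in the mouse, had levels of 10.18, 10.24 and 10.23 in the SAHA arrays, against 8.83, 8.85 and 8.76 in the control arrays, a 2.65-fold rise (adjusted p = 8.25e-08). The size of this rise differed between its probe sets. A second BMP8B probe set changed by 0.63 (adjusted p = 0.00362 over all probe sets), and the near-identical neighbour BMP8A rose by 1.49. Signal could be shared between these copies, so the split between BMP8A and BMP8B is uncertain. BMP6, which controls hepcidin in the liver, rose by 0.70, to 10.70 ± 0.04 in SAHA and 9.99 ± 0.08 in control (adjusted p = 9.79e-06). BMP7, a kidney and bone morphogen, fell by 0.41 (adjusted p = 0.000208). BMP3, an antagonistic BMP, fell by 0.16 (adjusted p = 0.0352), a call that ended without any single array other than control replicate 3 (changes of -0.17 to -0.11, adjusted p = 0.0612 to 0.0962). That call also ended in an unmoderated per-gene test (adjusted p = 0.0727) and with the trend and robust options of limma (adjusted p = 0.075). After a further quantile normalization the change of BMP3 was -0.28. BMP2 and BMP5 did not pass, at 0.13 and -0.14 (adjusted p = 0.335 and 0.492). For BMP5, control replicate 3 stood at 11.26 while the other control arrays were at 10.58 and 10.64, and without that array the difference was 0.075 (adjusted p = 0.221).

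Of 8 GDF genes 3 rose, each nearly 3-fold, 1 fell and 4 did not pass (50.0% called, against 60.0% of all genes). GDF15, a stress-induced cytokine that acts on appetite through a brainstem receptor, had levels of 13.11, 13.10 and 13.09 in the SAHA arrays, against 11.46, 11.43 and 11.77 in the control arrays. The SAHA arrays were within a few hundredths of each other and above all controls (2.92-fold, 1.54 ± 0.09, adjusted p = 1.58e-06). GDF11, a close relative of myostatin, had levels of 9.82, 9.87 and 9.62 in the SAHA arrays, against 8.30, 8.29 and 8.08 in the control arrays. It rose 2.91-fold with no overlap of the groups (adjusted p = 1.34e-06). GDF9, a factor known from the oocyte, had levels of 7.88, 7.96 and 8.09 in the SAHA arrays, against 6.37, 6.62 and 6.26 in the control arrays, a 2.94-fold rise (adjusted p = 2.58e-06). GDF7, a BMP-like factor of the developing spinal cord, fell by 0.60 (adjusted p = 0.000264). GDF3, GDF5, GDF6 and GDF10 changed by amounts between -0.034 and 0.12 and did not pass. The groups of GDF6 did not overlap, and its difference of 0.12 (adjusted p = 0.0549) passed without control replicate 3 (0.14, adjusted p = 0.0359).

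**Figure D2:**
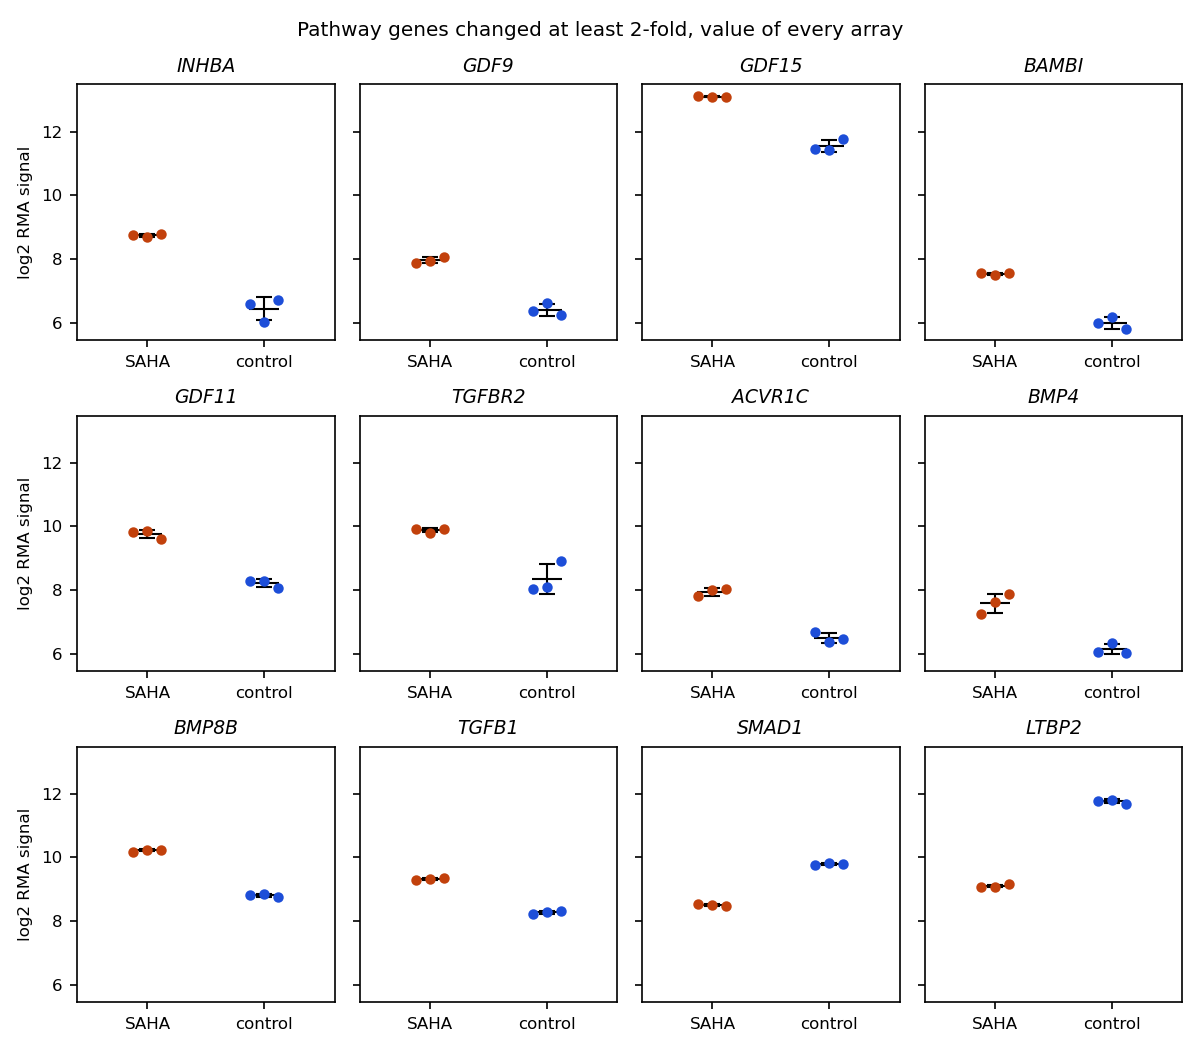
Log2 RMA signal (vertical axis) of the 12 pathway genes that passed the test with a change of at least 2-fold, as 1 point per array, SAHA left of control, with the mean and SD of 3 arrays in black. The groups are apart in every panel, and control replicate 3 of TGFBR2 lies above the other control arrays at 8.91.

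Of the 6 genes grouped under ligand release and matrix 4 fell and 2 rose, where 28.9% of all genes were lower and 31.1% higher. LTBP2, a matrix protein of the latent TGF-beta binding family that does not itself bind latent TGF-beta, had levels of 9.08, 9.08 and 9.15 in the SAHA arrays, against 11.78, 11.80 and 11.69 in the control arrays. It fell by 2.65 ± 0.05 (adjusted p = 9.11e-09), and its change stayed between -2.69 and -2.62 in 17 alternative settings. LTBP3 and LTBP1, which do bind latent TGF-beta, fell by 0.89 and 0.65 (adjusted p = 3.13e-05 and 0.000869). LTBP3 averaged 10.12 ± 0.04 in SAHA and 11.01 ± 0.17 in control and LTBP1 averaged 9.41 ± 0.05 in SAHA and 10.06 ± 0.24 in control (SD, n = 3 each). LTBP4, the fourth member, rose by 0.45 (adjusted p = 5.57e-05). BMP1, a protease that cleaves procollagen and the BMP antagonist chordin, fell by 0.59 (adjusted p = 0.00016). A second, dimmer probe set of BMP1 changed by 0.069 (adjusted p = 0.449 over all probe sets), so the mean of both was lower by only 0.26. TGFBI, a matrix protein named for its induction by TGF-beta, rose by 0.42 (adjusted p = 0.00854, and 0.0634 in an unmoderated per-gene test).

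Of 12 receptor genes measured, 6 rose, 3 fell and 3 missed the threshold (75.0% called, against 60.0% of all genes). Their median change was 0.09. Among the type II receptors, which carry the constitutively active kinase, TGFBR2 had the largest rise, with levels of 9.93, 9.81 and 9.92 in the SAHA arrays, against 8.04, 8.11 and 8.91 in the control arrays. The 3 SAHA values lay above all controls, and control replicate 3 lay well above the other control arrays. The change was 1.53 ± 0.21 (adjusted p = 0.000265) and 1.81 without control replicate 3. ACVR2A, an activin receptor, rose by 0.80, to 8.95 ± 0.03 in SAHA and 8.14 ± 0.19 in control (adjusted p = 7.84e-05), whereas its relative ACVR2B fell by 0.68, to 6.82 ± 0.07 in SAHA and 7.50 ± 0.11 in control (adjusted p = 4.21e-05). BMPR2, the BMP type II receptor, rose by 0.13 (adjusted p = 0.024), a call lost without any one of the SAHA arrays or control replicate 2 (changes of 0.12 to 0.14, adjusted p = 0.0525 to 0.0801).

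The type I receptors, which phosphorylate SMADs, changed little with 1 exception. ACVR1C (ALK7), a receptor for nodal and some activins, had levels of 7.82, 8.02 and 8.03 in the SAHA arrays, against 6.68, 6.39 and 6.47 in the control arrays. It rose 2.71-fold without overlap (adjusted p = 2.69e-06). TGFBR1 and ACVR1B, the main type I receptors for TGF-beta and activin, fell by 0.14 and 0.13 (adjusted p = 0.0202 and 0.0442). Neither fall held after a further quantile normalization, where the changes were -0.066 and -0.040, or without SAHA replicate 2 (-0.13 and -0.12, adjusted p = 0.0706 and 0.113), which left ACVR2B as the 1 lower receptor. TGFBR1 also lost its call without SAHA replicate 3 (adjusted p = 0.072), and ACVR1B without SAHA replicate 1 or control replicate 2 or 3 (adjusted p = 0.15, 0.0998 and 0.0865). ACVR1, BMPR1B and ACVRL1, receptors of BMPs, were between -0.027 and 0.054 and did not pass. The coreceptor TGFBR3 (betaglycan), which presents TGF-beta to TGFBR2, rose by 0.89, to 7.95 ± 0.06 in SAHA and 7.06 ± 0.08 in control (adjusted p = 3.66e-06). ENG (endoglin), the endothelial coreceptor, rose by 0.21 (adjusted p = 0.0121), but after a further quantile normalization its change was 0.14 (adjusted p = 0.0787).

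Of 10 endothelial marker genes 3 were higher, 3 lower and 4 did not pass, a called share of 60.0% that equals that of all genes. Their summed linear signal was 2207 to 2315.5 in SAHA and 7355 to 7612.4 in control. CDH5 (VE-cadherin) made up most of that sum and was lower, at 10.54 ± 0.03 in SAHA and 12.73 ± 0.03 in control in log2. TEK and EMCN were lower by small amounts (-0.178 and -0.184), while KDR, ESAM and ERG were higher (0.645, 0.577 and 0.134). PECAM1 averaged 5.17 ± 0.05 in SAHA and 5.04 ± 0.10 in control and VWF averaged 6.08 ± 0.07 in SAHA and 5.85 ± 0.21 in control (SD, n = 3 each), and neither passed. Of 8 fibroblast markers 4 were higher and 1 lower (62.5% called, near the 60.0% of all genes), with summed signals of 523.7 to 547.7 in SAHA and 427.6 to 470.4 in control. Of 8 blood cell markers measured 1 was lower and 7 did not pass (12.5% called). Of 8 skeletal muscle markers 2 were higher (DES by 0.76 and CKM by 0.45), 1 was lower (TNNT1, at -0.21) and 5 did not pass (37.5% called), with summed signals of 1657.3 to 1701.6 in SAHA and 1556.1 to 1735.2 in control. The part of these markers in the changes of pathway genes was not tested.

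The SMAD genes moved in 1 direction. Falls were called for 7 of 8 genes, all but SMAD9, and the median change was -0.51, where 28.9% of all genes were lower. Most SMAD genes were bright. In a fit of genes at or above the median level only, 7 of 7 SMAD genes were lower, against 3993 of 9209 genes, a larger share than 28.9%. SMAD1, a transducer of BMP signals, had levels of 8.55, 8.50 and 8.49 in the SAHA arrays, against 9.78, 9.83 and 9.79 in the control arrays. It was 2.44-fold lower and fell by 1.29 ± 0.04 (adjusted p = 9.58e-08), with little spread among the arrays of a group. SMAD5, its partner in BMP signalling, fell by 0.31 (adjusted p = 0.000331). SMAD9, the third BMP transducer, was at -0.15 with overlapping groups (adjusted p = 0.109), and passed without control replicate 3 (-0.22, adjusted p = 0.0158). SMAD3, a transducer of TGF-beta and activin, fell by 0.70, to 11.25 ± 0.02 in SAHA and 11.95 ± 0.06 in control (adjusted p = 4.11e-06). SMAD2, the other, fell by 0.21 (adjusted p = 0.00314), and a second SMAD2 probe set fell by 0.66 (adjusted p = 1.33e-05 over all probe sets), the mean of both by 0.43. SMAD4, the common partner, fell by 0.46, to 10.89 ± 0.05 in SAHA and 11.35 ± 0.05 in control (adjusted p = 5.71e-05). The inhibitory genes SMAD6 and SMAD7, themselves targets of the pathway, fell by 0.68 and 0.55 (adjusted p = 1.94e-05 and 3.48e-05). SMAD6 had levels of 8.70, 8.65 and 8.51 in the SAHA arrays, against 9.32, 9.33 and 9.26 in the control arrays, and SMAD7 of 8.30, 8.35 and 8.34 in the SAHA arrays, against 8.86, 8.97 and 8.81 in the control arrays. In both genes the highest SAHA value stayed below the lowest control value. Across the 17 alternative settings 7 or 8 SMAD genes were lower and 0 were higher in each.

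**Figure D3:**
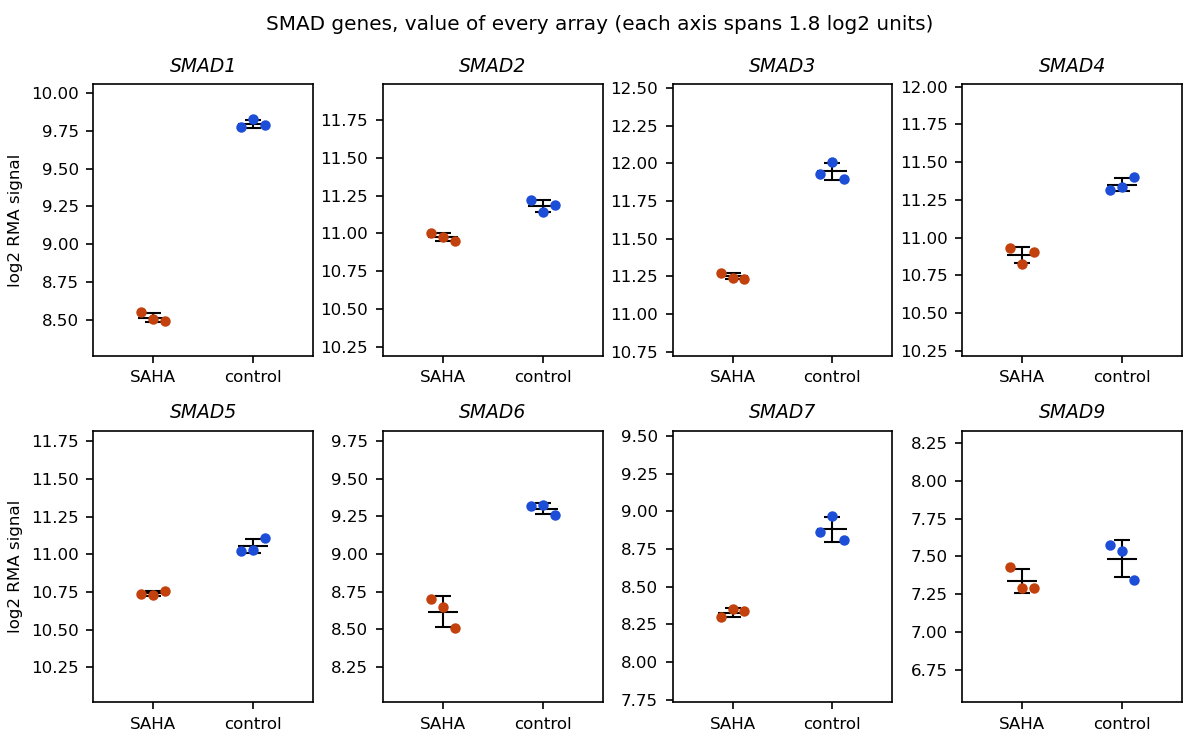
Log2 RMA signal (vertical axes, each spanning the same width) of the 8 SMAD genes as 1 point per array, SAHA left of control, with the mean and SD of 3 arrays in black. The groups are apart for 7 genes and overlap for SMAD9, and SMAD1 shows the widest gap.

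Of 3 intracellular regulators 1 fell, 1 rose and 1 did not pass (66.7% called, near the 60.0% of all genes). SKIL (SnoN), a corepressor of SMAD complexes and a known SMAD target, fell by 0.46, to 8.64 ± 0.03 in SAHA and 9.10 ± 0.06 in control (adjusted p = 5.1e-05). SMURF2, a ubiquitin ligase for SMADs and receptors, rose by 0.13 (adjusted p = 0.018), a call lost without any one of the SAHA arrays (changes of 0.13 to 0.14, adjusted p = 0.0536 to 0.0572). SMURF1, its relative, was at -0.034 (adjusted p = 0.542).

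Of 7 antagonist genes 3 fell, 1 rose and 3 did not pass (57.1% called, near the 60.0% of all genes). FST (follistatin), which binds activins tightly, had levels of 7.10, 7.09 and 7.20 in the SAHA arrays, against 8.20, 8.29 and 7.86 in the control arrays. The highest SAHA value was below the lowest control value, and the fall of 0.99 was just short of 2-fold (adjusted p = 6.31e-05). FSTL3, a second follistatin-type activin antagonist, fell by 0.35, to 9.94 ± 0.02 in SAHA and 10.30 ± 0.07 in control (adjusted p = 0.00032). Both genes for follistatin-type antagonists were lower in the arrays in which INHBA was higher and INHBB lower. NOG (noggin), a BMP antagonist, fell by 0.29, to 7.01 ± 0.14 in SAHA and 7.30 ± 0.17 in control (adjusted p = 0.0361). Its call was lost without SAHA replicate 1 or 2 or control replicate 2 (-0.21, -0.32 and -0.19, adjusted p = 0.114, 0.0531 and 0.0979). An unmoderated per-gene test did not call NOG either (adjusted p = 0.135). CHRD (chordin), GREM1 (gremlin) and BMPER, further secreted BMP antagonists or modulators, were at -0.088, 0.018 and -0.024 and did not pass. After a further quantile normalization CHRD passed at -0.21 (adjusted p = 0.0366). BAMBI, a pseudoreceptor without a kinase that dampens TGF-beta signals, had levels of 7.58, 7.51 and 7.56 in the SAHA arrays, against 5.99, 6.20 and 5.83 in the control arrays. It rose 2.92-fold (1.54 ± 0.09, adjusted p = 1.52e-06), opposite to the antagonist genes that fell.

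Further pathway genes outside the set were read from a list of 55, of which 50 were measured. The calls were 17 rises and 12 falls (58.0% of them, against 60.0% of all genes), the median change was 0.0019, and 21 did not pass. The largest rises were those of THBS1, thrombospondin-1, an activator of latent TGF-beta (2.15, adjusted p = 1.76e-06), and NEDD4L, a ubiquitin ligase for SMAD2 and SMAD3 (1.87, adjusted p = 4.82e-08). BMP8A followed at 1.49 and STRAP, a receptor-binding partner of SMAD7, at 0.85 (adjusted p = 5.05e-06). The largest falls were those of FSTL1, a secreted follistatin-like protein (-0.70), SOST, sclerostin (-0.64), ZFYVE9 (SARA), which anchors SMAD2 and SMAD3 at receptors (-0.60), and TGIF2, a SMAD corepressor (-0.55). Their adjusted p-values (limma) were 0.000104, 0.000148, 1.17e-05 and 2.03e-05. Of the other listed genes known to activate or hold latent TGF-beta, the integrin subunit genes ITGB6, ITGAV and ITGB8 and the surface anchor LRRC32 (GARP) rose as well, by 0.63, 0.32, 0.13 and 0.38 (adjusted p = 0.000481, 0.000192, 0.035 and 0.00191), while NRROS, a second anchor, was at 0.089 (adjusted p = 0.194). FURIN, a protease that processes the TGF-beta precursor, was lower, at -0.27 (adjusted p = 0.00239). These 6 genes were singled out after their values were seen.

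Genes known as targets of the pathway moved in both directions, rises outnumbering falls. Of 23 measured targets 14 rose, 6 fell and 3 did not pass (87.0% called, against 60.0% of all genes, for a list that was also drawn up with earlier results known), with a median change of 0.40. Brighter genes were called more often. In a fit of genes at or above the median level only, 14 of 19 targets were higher and 5 lower. The same fit called 3660 of 9209 genes higher and 3993 lower, a larger share than 60.0%. FN1, fibronectin, had levels of 10.73, 10.71 and 10.75 in the SAHA arrays, against 7.22, 7.34 and 7.87 in the control arrays and rose 9.51-fold (adjusted p = 4.96e-07). CCN2, the connective tissue growth factor, had levels of 12.87, 12.81 and 12.85 in the SAHA arrays, against 9.99, 9.87 and 9.34 in the control arrays and rose 8.61-fold (adjusted p = 6.45e-07). In both genes the SAHA arrays were tight and the control arrays were spread, with control replicate 3 the highest for FN1 and the lowest for CCN2. COL1A2, a collagen I chain, rose by 1.39 and MSX2, a BMP-induced homeobox gene, by 0.91 (adjusted p = 1.01e-06 and 2.75e-06). The largest falls were those of TAGLN, transgelin, at -1.44 (adjusted p = 1.15e-07), the BMP target ID1 at -0.58 (adjusted p = 6.96e-06), smooth muscle actin ACTA2 at -0.38 (adjusted p = 0.00427) and COL3A1 at -0.32 (adjusted p = 0.00618). The ID genes, the best known BMP targets, were split. ID1 averaged 11.90 ± 0.04 in SAHA and 12.49 ± 0.01 in control and ID3 averaged 12.14 ± 0.03 in SAHA and 12.29 ± 0.03 in control, both lower, while ID2 averaged 12.01 ± 0.05 in SAHA and 11.23 ± 0.14 in control and ID4 averaged 9.18 ± 0.11 in SAHA and 8.38 ± 0.19 in control, both higher (SD, n = 3 each, adjusted p = 0.0154 for ID3, 3.05e-05 for ID2 and 0.00018 for ID4). ID2, ID3 and ID4 were singled out after their values were seen. Many of these targets also answer to other pathways, and whether their changes follow those of the pathway genes was not tested.

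**Figure D4:**
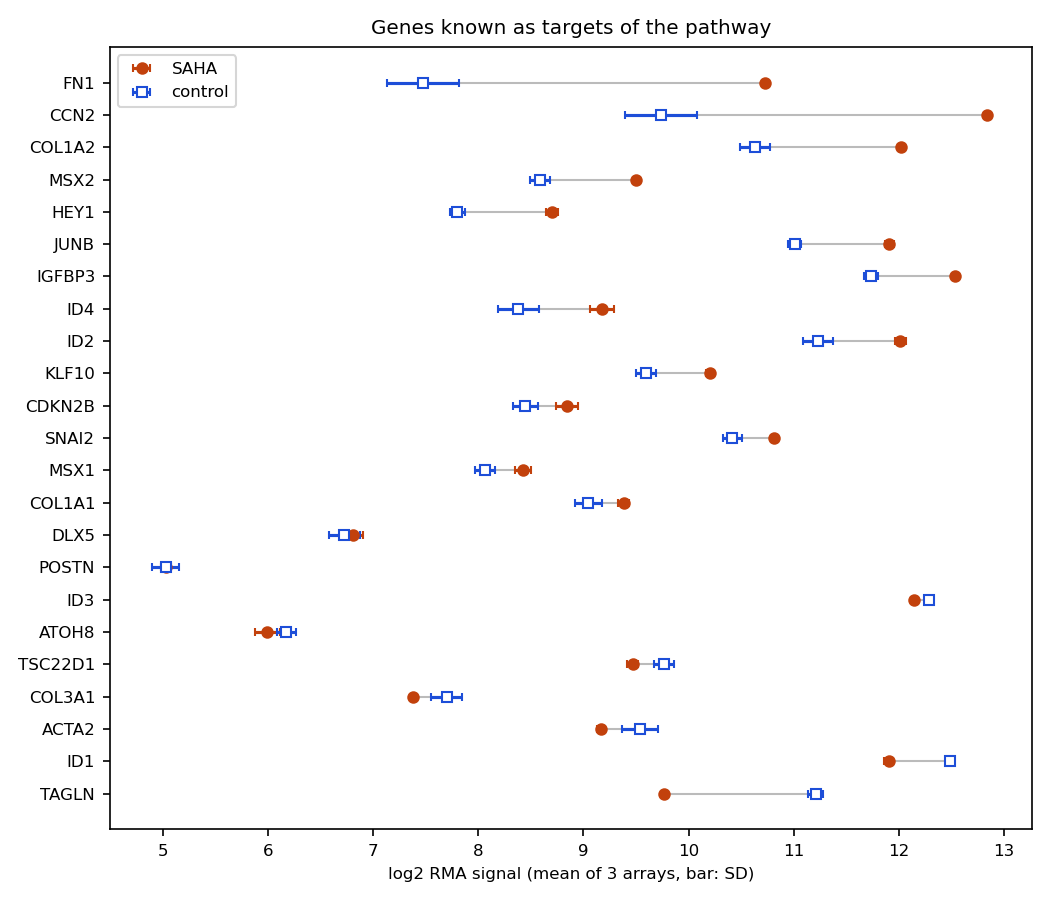
Log2 RMA signal (horizontal axis, mean of 3 arrays with SD) of the 23 measured target genes, ordered by change, with SAHA as filled circles and control as open squares. FN1 and CCN2 at the top show the widest gaps, and TAGLN at the bottom shows the widest gap in the other direction.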

How the data were processed

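Total RNA was prepared with the Ambion WT Expression Kit for Affymetrix whole-transcript arrays, per the labels' protocols. The deposited value of a probe set is an RMA signal intensity, per the submitters' processing notes, while the sources used here give no software or version for it. The deposited intensity values were linear, from 6.56 to 20338.2, so log2 was taken first. Of 33252 probe sets 19460 named 1 gene in the platform annotation, 1754 several and 12038 none. Of those naming 1 gene, 19426 were matched through the gene identifier and took the RefSeq symbol (GRCh38.p14), and 34 kept the symbol of the annotation.

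SAHA was compared with control over all 18417 genes with limma 3.58.1 in R 4.3.3 (lmFit, eBayes, no covariates, two-sided, Benjamini-Hochberg adjustment, threshold 0.05), and every adjusted p given is limma's unless named. Changes are SAHA minus control. Members with a called change of at least 1 were described by array, and the 4 largest called rises and falls of each further list were named. ID2, ID3, ID4, the marker genes and 6 genes of latent TGF-beta handling were named outside that rule. FST, SMAD6, SMAD7 and the targets FN1 and CCN2 were also described by array, outside the rule, and for BMP5 the control arrays were given. The members, roles and lists were chosen with earlier results of these data known. Alternatives were other scalings, filters on dim genes, other uses of probe sets, other models, the replicate block and each array left out.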

Additional observations from a re-analysis of the deposited data

How the results depend on the processing

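Of the 43 members called, 34 kept their call in every one of the 17 alternative settings that tested them, 9 lost it in at least 1 (TGFB3, TGFBI, TGFBR1, ENG, BMP3, BMPR2, ACVR1B, SMURF2 and NOG), and 0 changed direction. Of the 15 members that did not pass, 4 (INHBE, GDF6, SMAD9 and CHRD) passed in at least 1 setting. Leaving out genes under the median level kept 32 members and 9209 of all genes, so fewer genes were called, but a larger share of those kept. Of the 9209 genes, 3660 were higher and 3993 lower, together a larger share than the 60.0% of the main fit. Of the 32 members, 11 were higher and 18 lower, together a larger share than the 74.1% of the main fit. Of 27 further pathway genes kept, 11 were higher and 11 lower, together a larger share than the 58.0% of the main fit. By role that filter left 6 higher and 3 lower of 10 ligands, and 0 higher and 1 lower of 1 antagonist. It left 1 higher and 4 lower of 5 genes of ligand release and matrix, and 3 higher and 2 lower of 6 receptors. With the ordinary unmoderated test 1 gene of ligand release and matrix was higher. The number of lower receptors was 1 after a further quantile normalization, with cyclic loess scaling and with the replicate block, and 1 to 3 when single arrays were left out (1 without SAHA replicate 2). The number of higher intracellular regulators was 0 with the replicate block and 0 to 1 when single arrays were left out. With the replicate number as a block 18 members were higher and 21 lower, the calls of TGFBR1, BMPR2, ACVR1B and SMURF2 being lost and no other. Same-numbered arrays of SAHA and control did not deviate together (correlations of their deviations from the group means of -0.03, -0.167 and -0.004), so the numbers were not taken as pairs, and no array correlated best with its own number. The cause of changes not named here was not tested. Signs turned only for members that did not pass: after a further quantile normalization BMPR1B was at -0.022, ACVR1 at 0.0036, GDF3 at -0.020, SMURF1 at 0.029 and GREM1 at -0.10, with cyclic loess SMURF1 was at 0.0015 and GREM1 at -0.033, and with array weights ACVRL1 was at 0.0059. With single arrays left out, the change ranged from -0.26 to 0.075 for BMP5, from -0.042 to 0.11 for BMPR1B, from -0.056 to 0.017 for BMPER, from -0.066 to 0.0035 for ACVR1, from -0.024 to 0.041 for ACVRL1, from -0.15 to 0.058 for GDF5, from -0.055 to 0.033 for GDF10 and from -0.0053 to 0.033 for GREM1. Signal over background was not analysed here, so which dim genes have only a bound is unknown.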

Other observations

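Several members are neighbours in the RefSeq gene order, with 0 coding genes between them, and the pairs below were chosen after their values were seen. SMAD3 and SMAD6 on chromosome 15 fell by nearly equal amounts (-0.70 and -0.68). ACVR1C and ACVR1 on chromosome 2 did not move alike, at 1.44 and -0.027, and TGFBI and SMAD5 on chromosome 5 were at 0.42 and -0.31. ACVR1B and ACVRL1 on chromosome 12 were at -0.13 and -0.00070.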
